A study of Canis lupus familiaris with 18 samples.

Results

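C/D box small nucleolar RNAs (snoRNAs) were examined in RNASeq counts from high grade oligodendroglioma (HGO) of French bulldogs, boxers and Boston terriers. Members were all genes in the count table whose symbol was SNORD followed by a digit and whose count, summed over the 18 libraries, was at least 10. This gave 62 members of 29993 genes, under 25 symbols, out of 78 SNORD genes listed. The members were chosen by their symbol and by this summed count, with earlier results of the breed comparison known. Of the 29993 genes, 16324 carried a symbol, so C/D snoRNA genes without one are not members. The members nearest the limit had 10 and 13 counts, and the nearest genes outside it had 8 and 7. Of the 16 SNORD genes outside, 10 had no count in any library, among them the single genes listed as SNORD28, SNORD29, SNORD30 and SNORD31.

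C/D box snoRNAs are short nucleolar RNAs named for a pair of conserved sequence motifs. They bind fibrillarin, NOP56, NOP58 and SNU13, and most of them pair with ribosomal RNA and direct fibrillarin to methylate the ribose of a chosen nucleotide. In mammals most are cut from the introns of host genes, many of which encode ribosomal proteins, while the exons of other hosts, such as GAS5 and SNHG1, encode no protein. Hosts are named below after the known human host of each symbol, and the position of the dog genes in those hosts was not checked. No sequence of these genes is printed, because none was used here.

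The tissue was prosencephalic HGO, a brain tumor of oligodendroglial type, that arose in pet dogs and was surgically resected, fixed in formalin and embedded in paraffin. French bulldogs gave 11 libraries, and the comparison group was 4 boxers (controls 1, 3, 4 and 5) and 3 Boston terriers (controls 2, 6 and 7). French bulldogs 2 and 8 share a case number in their labels, so their counts were summed and counted as 1 dog, which left 10 French bulldogs against 7 comparison dogs. No treatment is given in the labels, and no age, sex or site within the brain entered the analysis. Libraries were made from total RNA after removal of ribosomal RNA, with paired-end reads that are shorter than most snoRNAs, so reads from a snoRNA and from unspliced host RNA cannot be told apart.

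Library totals ranged from 8212452 to 13169880 counts, and 3 counts, taken as the smallest level that could be shown, equalled 0.167 to 0.365 CPM (counts scaled to the library size) in a dog. This limit covers counting error only. Libraries 2 and 8 differed beyond sampling noise, but their median absolute log2 difference over the tested members was 0.28, against 0.75 between other pairs of French bulldogs. French bulldog 6 stood apart in its marker genes. OLIG2 and NKX2-2 of the oligodendrocyte lineage had 0 counts in it and at least 1137 and 272 in every other dog. Its 7 oligodendrocyte markers summed to 43.3 normalized CPM (CPM of the TMM-scaled library size), against 1122 to 6943 in the other French bulldogs and 1681 to 3383 in the comparison dogs. Its 7 macrophage and microglia markers summed to 5842, against 41.1 to 270.3 and 54.2 to 134.1. The group medians of this macrophage sum were 130.1 in French bulldogs and 114.8 in comparison dogs. The part of these cells in the results was not tested, and counts of members are also given without French bulldog 6.

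The members held 360047 counts in all, and a few of them held most. The SNORD22 gene ENSCAFG00000026245 alone held 29.3%, the 2 highest genes 39.0% and the 10 highest 81.3%. SNORD22, hosted by SNHG1, is known for a part in processing of ribosomal RNA and has no established methylation site. Several genes carried the same symbol in 14 of the 25 symbols. SNORD22 was listed 12 times and SNORD116 14 times, and counts of near-identical copies may have been split by the counting. Of the 5 tested SNORD22 genes, 3 had 196 to 230 counts each. How copies shared reads was not tested.

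In French bulldogs, members took 0.207% ± 0.0890 (SD, n = 10) of all counts, with a lowest value of 0.0657%, a median of 0.203% and a highest value of 0.373%. In the comparison dogs the share was 0.157% ± 0.0444 (SD, n = 7), with a lowest value of 0.0935%, a median of 0.148% and a highest value of 0.237%. The French bulldog range enclosed the whole comparison range. Without French bulldog 6 the French bulldog share was 0.203% ± 0.0934 (SD, n = 9). The single gene with the most counts took 18.9% to 33.4% of a French bulldog's counts and 19.1% to 27.4% of a comparison dog's.

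**Figure D1:**
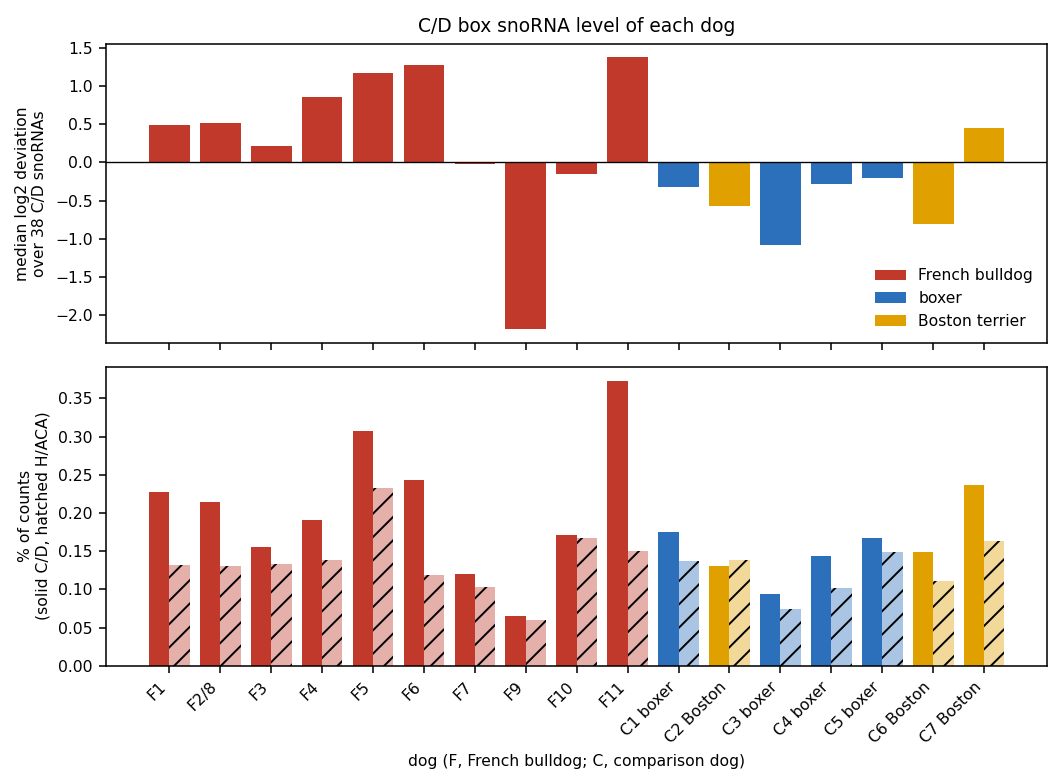
Upper panel, median over the 38 tested C/D snoRNAs of the log2 deviation of a dog's normalized CPM from the mean of the 17 dogs; lower panel, percent of a dog's counts on C/D snoRNAs (solid) and H/ACA snoRNAs (hatched). French bulldog 9 lies at -2.19 and French bulldog 11 at 1.37, the lowest and highest of all dogs, and 6 of the 7 comparison dogs lie below 0.

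After the filter on low counts, 38 members under 24 symbols could be tested. They held 99.6% of the members' counts, and the 24 others had 10 to 132 counts each. The question was whether C/D snoRNA levels differed between HGO of French bulldogs and HGO of the other breeds. No member passed the threshold of 0.05 on the adjusted p-value of edgeR's quasi-likelihood test, and 0% of the 16584 genes tested did. The smallest adjusted p of a member in that edgeR test was 0.509. At an unadjusted p under 0.05, 21 of the 38 members were called and all 21 were higher in French bulldogs, where 9.56% of all genes were called, 6.45% higher and 3.11% lower. The fitted log2 fold change was positive for 36 of the 38 members (53.6% of all genes) and at least 1 for 19 of them (4.82% of all genes). Its median was 0.99 over members and 0.03 over all genes.

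Members of 1 symbol are not independent of each other, and neither are members of 1 dog. With only the highest-count gene of each symbol kept, all 24 log2 fold changes were positive, 16 had an unadjusted p under 0.05 in the edgeR test, and the median was 1.03. Without French bulldog 6, 34 of 38 members were higher, 19 had an unadjusted p under 0.05 (8.51% of all genes) and the median was 0.85. Members varied more between dogs than the typical gene, with a median biological coefficient of variation of 0.571 over tested members and 0.454 over all genes. In no member did the groups fail to overlap, against 0.0543% of all genes.

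The count of members at an unadjusted p under 0.05 depended on the test. DESeq2 gave 24 of all 62 members (8.56% of all genes), and edgeR without the filter on low counts gave 23 of 62 (10.4%), with 49 of the 62 higher and a median log2 fold change of 0.75. With French bulldogs 2 and 8 as separate dogs it was 22 of 38 (10.6%), with 0 adjusted calls among members (0.00606% of all genes). With limma-voom it was 5 of 38 (7.89%), again with 0 adjusted calls (0.00603%), and the median log2 fold change was 0.82. Blocking on the dogs' numbers gave 24 of 38 (6.3%), and the same 14 dogs without the block gave 25 of 38 (11.2%).

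**Figure D2:**
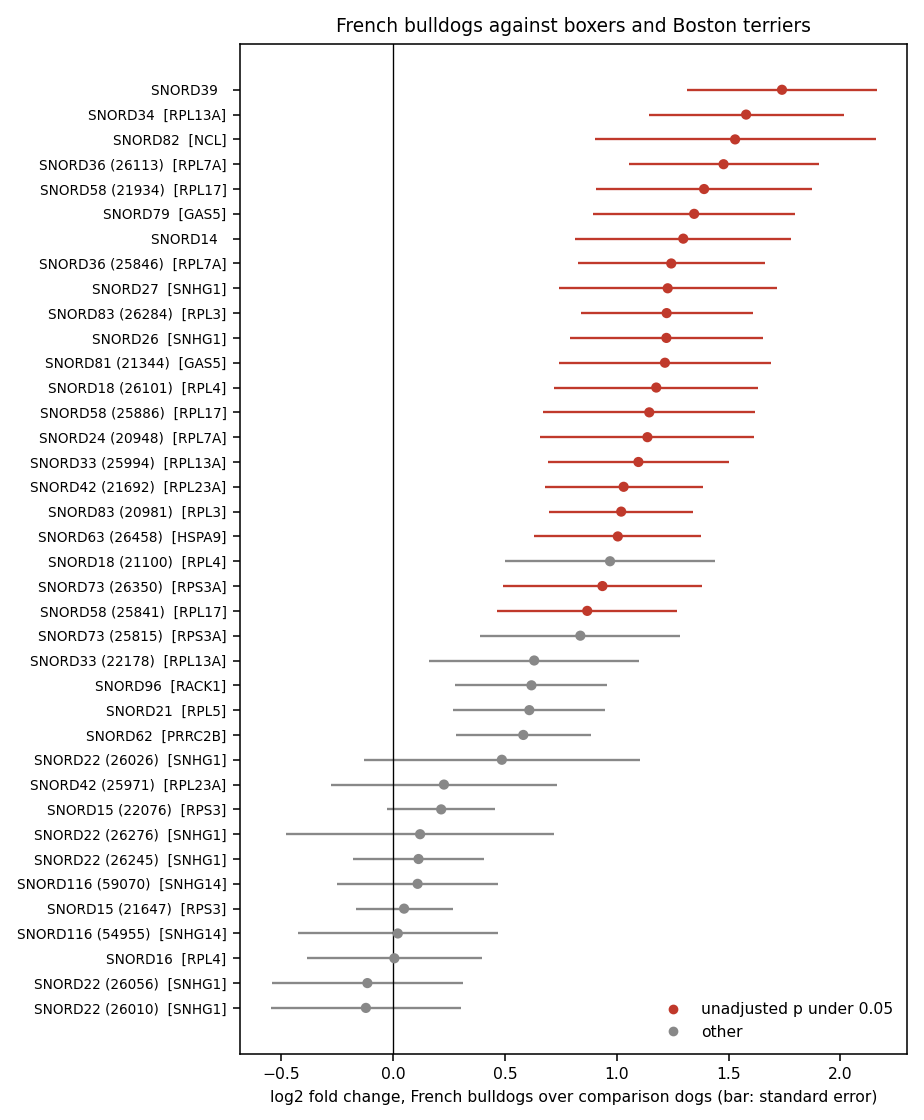
Log2 fold change of each of the 38 tested C/D snoRNAs, French bulldogs over comparison dogs, with its standard error from the edgeR fit; the host gene is in square brackets and red marks an unadjusted p under 0.05. Values run from -0.12 for a SNORD22 gene to 1.74 for SNORD39, and every red point lies to the right of 0.

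SNORD39 had the smallest p-value. Its level in French bulldogs ranged from 23.5 to 363.7 normalized CPM with a median of 226.3, and in comparison dogs from 34.9 to 107.8 with a median of 56.3. French bulldogs 9 (23.5) and 10 (88.5) lay within or below the comparison range, and the other 8 French bulldogs lay above all comparison dogs. The boxers were between 47.5 and 107.8 and the Boston terriers between 34.9 and 84.4, so these breeds overlapped. The log2 fold change was 1.74 (SE 0.42), with an unadjusted p of 0.00070 and an adjusted p of 0.509 in edgeR's quasi-likelihood test. By the Wald test of DESeq2 the adjusted p of SNORD39 was 0.0206, and it was the only member called there (0.121% of all genes).

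Members hosted by ribosomal protein genes gave the next values. SNORD34 is a guide to a large-subunit ribosomal RNA site, and in human it lies with SNORD33 in introns of RPL13A. SNORD34 ranged from 5.99 to 101.2 normalized CPM in French bulldogs (median 60.6) and from 11.3 to 37.9 in comparison dogs (median 15.6). French bulldog 9 was the lowest of all dogs, 6 French bulldogs were above every comparison dog, and all 7 comparison dogs were below the French bulldog median. The log2 fold change was 1.58 (SE 0.44), with unadjusted p of 0.00202 and adjusted p of 0.509 in the edgeR test. The paired RPL13A snoRNA SNORD33, a small-subunit guide, was listed under 2 genes, with log2 fold changes of 0.63 (SE 0.47) for ENSCAFG00000022178 and 1.10 (SE 0.41) for ENSCAFG00000025994.

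SNORD36 and SNORD24 are assigned to RPL7A by the human hosts, but RefSeq lists only 2 snoRNA genes inside dog RPL7A, fewer than the 3 tested members assigned to it. The higher of the SNORD36 genes, ENSCAFG00000026113, ranged from 10.2 to 224.4 normalized CPM in French bulldogs (median 135.2) and from 28.3 to 82.4 in comparison dogs (median 37.3). All comparison dogs were below the French bulldog median, and French bulldog 9 was again the lowest dog. Its log2 fold change was 1.48 (SE 0.42). The other SNORD36 gene, ENSCAFG00000025846, had a log2 fold change of 1.24 (SE 0.42), and SNORD24, named here after its values were seen, 1.14 (SE 0.48).

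Both SNORD83 genes, hosted by RPL3, were among the 5 smallest p-values although their counts were low. ENSCAFG00000026284 ranged from 2.38 to 18.7 normalized CPM in French bulldogs (median 12.8) and from 3.64 to 5.92 in comparison dogs (median 4.92), which lay close together. French bulldogs 9 and 10 were below every comparison dog and the other 8 were above. The log2 fold changes were 1.22 (SE 0.38) for this gene and 1.02 (SE 0.32) for ENSCAFG00000020981.

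The remaining genes with the smallest p-values were SNORD79 of GAS5, a non-coding host known as a growth arrest transcript, with a log2 fold change of 1.35 (SE 0.45), SNORD42 ENSCAFG00000021692 of RPL23A with 1.03 (SE 0.35), and SNORD58 ENSCAFG00000021934 of RPL17 with 1.39 (SE 0.48). SNORD26, a large-subunit guide from SNHG1, was the last of these. It ranged from 18.2 to 431.7 normalized CPM in French bulldogs (median 148.3) and from 43.9 to 131.7 in comparison dogs (median 69.1), with a log2 fold change of 1.22 (SE 0.43). French bulldog 11 was far above and French bulldog 9 far below the other French bulldogs. Across these 10 members the unadjusted edgeR p-values ran from 0.00070 to 0.0112.

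Other abundant members were nearly level between the groups. SNORD22 ENSCAFG00000026245 ranged from 258.3 to 1409 normalized CPM in French bulldogs (median 537.9) and from 288.7 to 802.2 in comparison dogs (median 543.7). The medians were close and the ranges overlapped almost wholly, and French bulldog 11 stood alone at the top. The log2 fold change was 0.11 (SE 0.29), and that of the next SNORD22 gene, ENSCAFG00000026010, was -0.12 (SE 0.43). SNORD15, a large-subunit guide assigned to RPS3, gave 0.05 (SE 0.22) for ENSCAFG00000021647 and 0.21 (SE 0.24) for ENSCAFG00000022076, which was 0.046 without French bulldog 6. SNORD15 ENSCAFG00000021647 ranged from 90.3 to 198.8 normalized CPM in French bulldogs (median 120.9) and from 71.0 to 177.4 in comparison dogs (median 126.3). SNORD62 of PRRC2B lay between, at a mean of 69.2 normalized CPM with an SD of 29.7 in 10 French bulldogs against 46.2 with an SD of 16.3 in 7 comparison dogs, with a log2 fold change of 0.58 (SE 0.30).

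**Figure D3:**
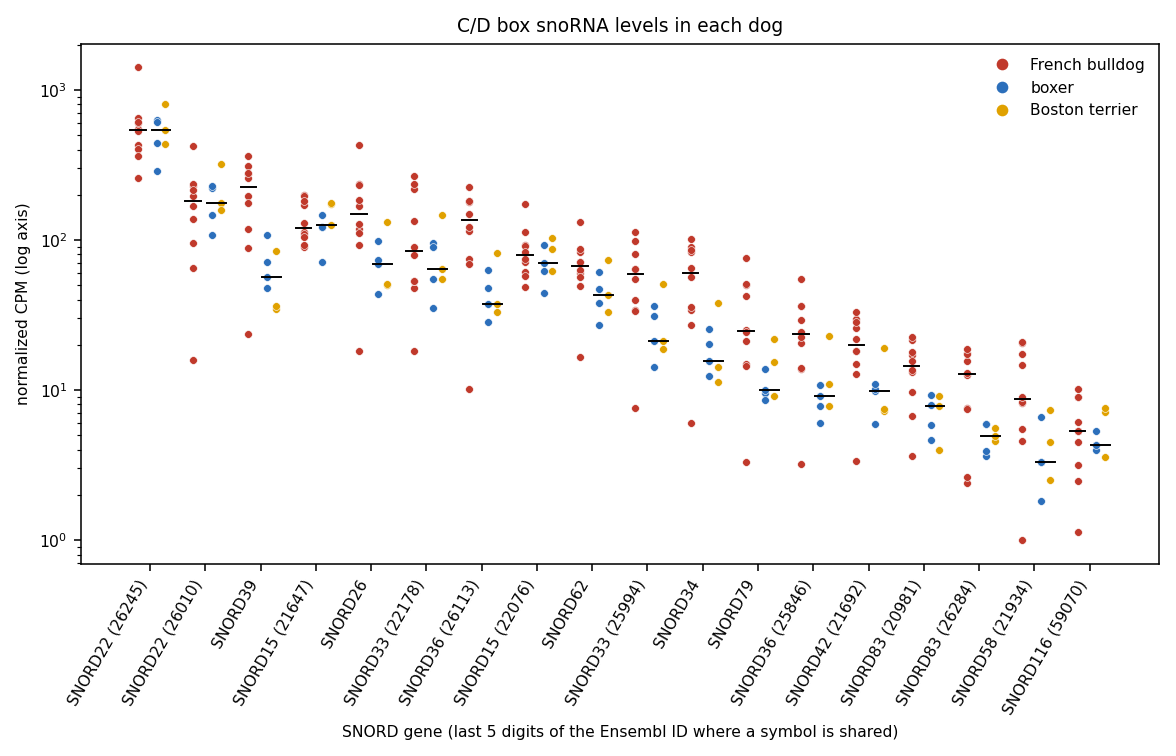
Normalized CPM of 18 C/D snoRNA genes in each dog on a log axis, ordered by summed count; each point is a dog, coloured by breed, and the bars are group medians. The SNORD39, SNORD36 and SNORD34 medians are higher in French bulldogs, those of SNORD22 and SNORD15 are close, and 1 French bulldog lies far below the rest in most genes.

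SNORD115 and SNORD116 are brain-enriched, come from the imprinted SNHG14 transcript and are not known to guide ribosomal RNA methylation. Of the 16 members in this cluster, 2 SNORD116 genes passed the filter, with log2 fold changes of 0.11 (SE 0.36) for ENSCAFG00000059070 and 0.02 (SE 0.45) for ENSCAFG00000054955. Summed over its genes, French bulldogs had 9.72 normalized CPM of SNORD116 (lowest 1.86, highest 17.0, n = 10) and comparison dogs had 10.5 (lowest 6.47, highest 14.4, n = 7). The sum over SNORD115 genes was 0.917 ± 0.871 normalized CPM (SD, n = 10) and 1.12 ± 0.833 (SD, n = 7), with dogs at 0 counts in each group. The lowest SNORD116 sum, 1.86, was that of French bulldog 6. Its 6 neuronal markers summed to 5.69 normalized CPM, with GRIN1 at 0 counts, against 64.4 to 1133 in the other French bulldogs and 85.7 to 1017 in the comparison dogs. Its 3 listed astrocyte markers summed to 8.59, none at 0 counts, against 392.5 to 4522 and 570.5 to 3082. The part of these cells in the SNORD116 level was not tested. In bulk tissue, fewer cells of a type and less RNA per cell cannot be told apart. SNORD3, SNORD13, SNORD118, SNORD113 and SNORD114 were not among the symbols. U3 and U8, other names of SNORD3 and SNORD118, were listed under 41 and 3 genes and are not members. The level of U8 was not examined.

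The level of the tested members varied widely from dog to dog within a breed. French bulldog 9 had the lowest level of all 17 dogs in 29 of the 38 tested members and was among the 3 lowest dogs in 36. French bulldog 11 was the highest dog in 20 members, and French bulldogs 5, 6 and 11 together supplied the highest dog in 33. The median log2 deviation over tested members fell to -2.19 for French bulldog 9, while the rest of its breed spanned -0.15 to 1.37. Among comparison dogs it ran from -1.09 in the boxer control 3 to 0.44 in the Boston terrier control 7. Without French bulldog 9, 26 of 38 members had an unadjusted p under 0.05 (11.3% of all genes) and the smallest adjusted p in the edgeR test was 0.0705.

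The low level of French bulldog 9 was uneven over members. It had 15.9 normalized CPM of SNORD22 ENSCAFG00000026010 where the other dogs had at least 65.1, and 10.2 of SNORD36 ENSCAFG00000026113 where they had at least 28.3. For SNORD15 ENSCAFG00000021647 it had 93.0, above the 90.3 of French bulldog 7 and the 71.0 of control 3. Its total count, 11777046, was neither the lowest nor the highest. Its H/ACA snoRNA share, 0.0593%, was also the lowest of all dogs.

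Host genes were assigned from the known human hosts by symbol for 60 members, which gave 16 hosts. Of the tested members, 18 had a host gene that was itself listed and tested, over 10 hosts. The fitted log2 fold change was higher for the snoRNA than for its host in 15 of these 18. The medians were 1.01 for the members and 0.25 for the hosts, which ran from -0.07 for PRRC2B to 0.40 for HSPA9. HSPA9, a mitochondrial chaperone, was the 1 host with an unadjusted p under 0.05. The exceptions were both SNORD15 genes of RPS3, at 0.05 and 0.21 against 0.40, and SNORD16 of RPL4, at 0.01 against 0.17. GAS5, SNHG1, RPL17, RPL23A, RPS3A and SNHG14 were not used here because no gene carried their symbol. The differences between snoRNA and host were not tested.

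**Figure D4:**
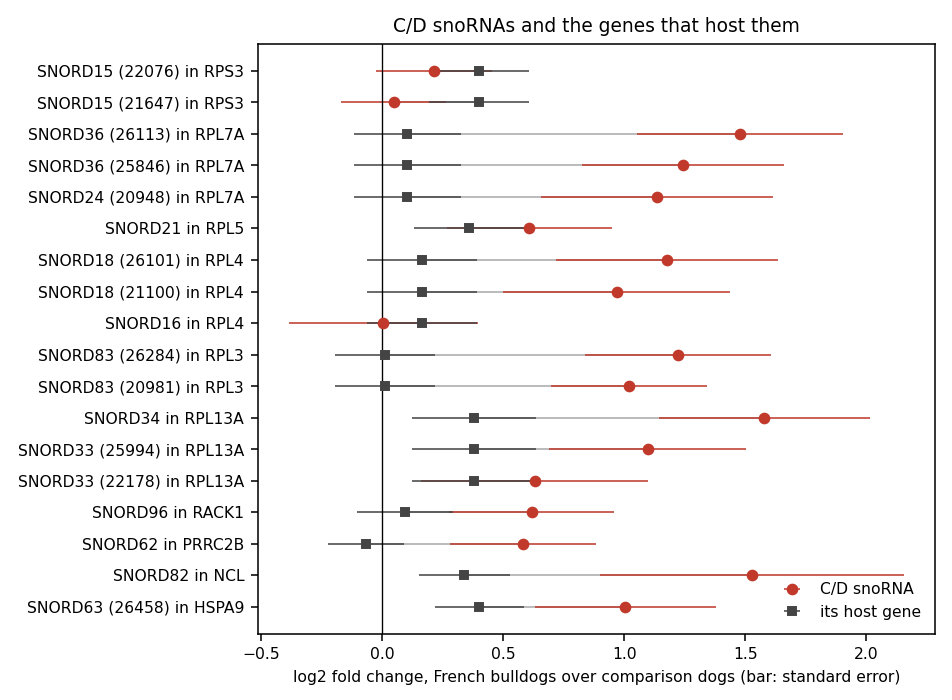
Log2 fold change, French bulldogs over comparison dogs, of 18 C/D snoRNAs (red circles) and of the genes that host them (dark squares), with standard errors from the edgeR fit. In 15 of the 18 pairs the snoRNA lies to the right of its host, and the 2 SNORD15 genes and SNORD16 lie to the left.

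By host, RPL7A had 3 of 3 tested members at an unadjusted p under 0.05 (median log2 fold change 1.24), RPL17 3 of 3 (1.15), RPL3 2 of 2 (1.12), GAS5 2 of 2 (1.28) and RPL13A 2 of 3 (1.10), where 9.56% of all genes were called. NCL and HSPA9 each had 1 of 1 (1.53 and 1.00), and RPS3A and RPL23A 1 of 2 (0.89 and 0.63). RPL4 had 1 of 3 (0.97), SNHG1 2 of 7 (0.12), RPS3 0 of 2 (0.13) and SNHG14 0 of 2 (0.07). PRRC2B, RACK1 and RPL5 each had 0 of 1 (0.58, 0.62 and 0.61). SNHG1 split by symbol, with SNORD26 and SNORD27 at 1.22 and 1.23 and its 5 tested SNORD22 genes between -0.12 and 0.49. Its 2 of 7 and its median of 0.12 rest mostly on these SNORD22 genes, which were assigned to SNHG1 by symbol alone. RefSeq (UU_Cfam_GSD_1.0) lists snoRNA genes of 145 and 148 bases inside RPS3, 73 to 87 bases inside RPL13A, 74 and 75 bases inside RPL7A and 66 bases inside RPL17. It also lists 55, 64, 93 and 94 bases inside RPL3, 70 to 99 inside RPL4, 83 inside PRRC2B, 96 and 137 inside RPL5, 66 to 135 inside NCL, 66 and 75 inside HSPA9, 68 and 79 inside RACK1 and 70 and 73 inside RPS3A. These were not matched gene by gene to the counts, and whether length bears on the differences was not tested.

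Ratios of counts within a dog do not depend on library scaling. They were chosen after the values were seen and carry no test. The ratio of SNORD34 to SNORD33 ENSCAFG00000022178 ranged from 0.323 to 0.927 in French bulldogs (median 0.470) and from 0.176 to 0.352 in comparison dogs (median 0.260), and 8 of 10 French bulldogs were above every comparison dog. The ratio of SNORD18 ENSCAFG00000026101 to SNORD16, both from RPL4, was 0.710 ± 0.336 (SD, n = 10) against 0.278 ± 0.0807 (SD, n = 7), with 9 of 10 French bulldogs above. For SNORD26 to SNORD22 ENSCAFG00000026245, both from SNHG1, it was 0.285 ± 0.105 against 0.137 ± 0.0301, with 8 of 10 above.

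Of the 20 ratios computed, 5 had at least 8 of 10 French bulldogs above every comparison dog. Beside the 3 above, these were SNORD27 to SNORD22, at 0.0723 ± 0.0328 against 0.0359 ± 0.00862, and SNORD33 ENSCAFG00000025994 to SNORD33 ENSCAFG00000022178, at 0.566 ± 0.178 against 0.361 ± 0.0373 with 9 of 10 above. The other 15 ratios had 0 to 6 French bulldogs above. Among them, SNORD18 ENSCAFG00000021100 to SNORD16 stood at 0.0645 ± 0.0313 against 0.0285 ± 0.0118 with 6 of 10 above, and SNORD58 ENSCAFG00000021934 to ENSCAFG00000025841 at 0.922 ± 0.503 against 0.639 ± 0.122 with 5 of 10 above.

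Some of the 15 had close means in the groups. The RPL3 genes of SNORD83 stood at 0.779 ± 0.230 in French bulldogs and 0.780 ± 0.328 in comparison dogs, SNORD81 to SNORD79 of GAS5 at 0.353 ± 0.0703 and 0.367 ± 0.0799, and the SNORD36 genes of RPL7A at 0.207 ± 0.0581 and 0.231 ± 0.0590. That the log2 fold changes within each of these pairs were close follows from the ratios and is not a second observation.

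**Figure D5:**
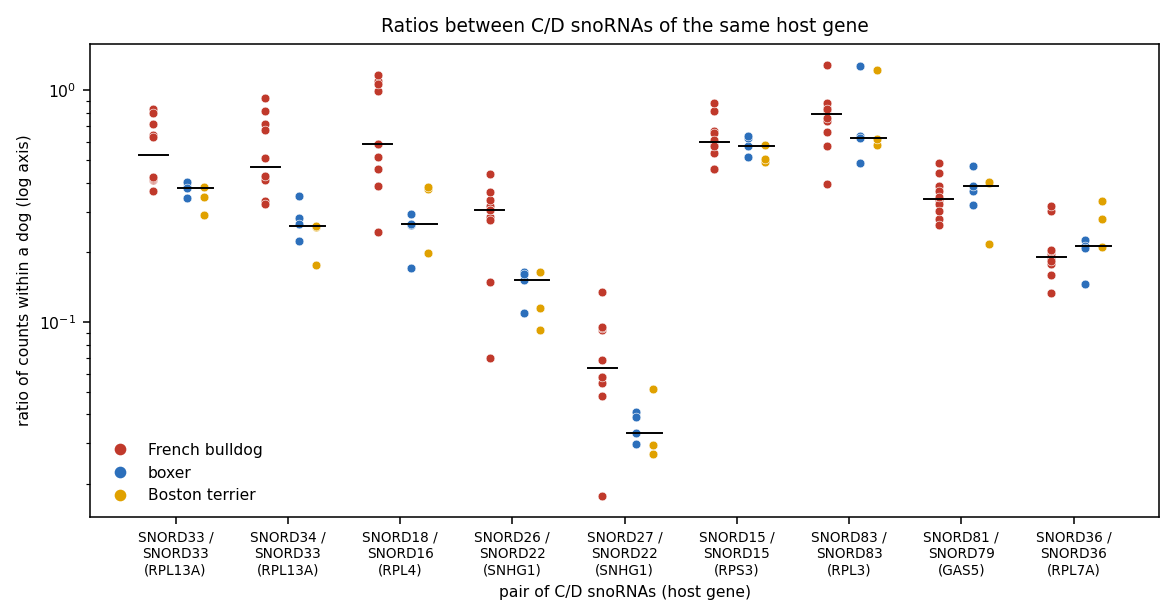
Ratio of counts of a pair of C/D snoRNAs assigned to the same host gene in each dog on a log axis, with group medians as bars, for 9 of the 20 ratios. French bulldogs lie mostly above the comparison dogs for SNORD33 to SNORD33, SNORD34 to SNORD33, SNORD18 to SNORD16 and SNORD26 or SNORD27 to SNORD22, and among them for the other pairs.

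Genes for proteins that act on C/D snoRNAs, and genes for ribosomal RNA synthesis and processing, had smaller log2 fold changes than the median member. Fibrillarin (FBL), the methyltransferase, had a log2 fold change of 0.22 (SE 0.27), and the core proteins NOP56 and NOP58 had 0.08 (SE 0.20) and 0.56 (SE 0.26). NOP58 had an unadjusted p of 0.0443 and an adjusted p of 0.518 in the edgeR test. SNU13 was not listed by symbol. Of 11 tested genes for assembly of the particles, 7 were higher and 1, RPAP3, had an unadjusted p under 0.05. Of 10 genes for snoRNA processing and export, 8 were higher and 1, the exonuclease XRN2, had an unadjusted p under 0.05. Of 19 genes for RNA polymerase I and ribosomal RNA processing, 15 were higher. This list also holds NOP10, NHP2 and DKC1, which are proteins of H/ACA and not of C/D snoRNAs. At that limit 1 gene, NOP10, was called higher and 1, the polymerase gene POLR1E, was called lower. All 3 lists were near the 9.56% of all genes called, and 53.6% of all genes were higher. The list medians were 0.17, 0.11 and 0.10, against 0.03 over all genes.

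Within the comparison group, boxers and Boston terriers gave 36 tested members, of which 27 were lower in boxers (50.7% of all genes) and 1 had an unadjusted p under 0.05 in the edgeR test (6.23% of all genes). None passed the adjusted threshold, at which 0% of genes were called. The median log2 fold change was -0.30 over members and -0.01 over all genes. Against boxers alone, French bulldogs had 18 of 42 members at an unadjusted p under 0.05 (6.56% of all genes) and a median of 1.09. Against Boston terriers alone they had 3 of 45 (2.76%) and a median of 0.71.

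The library numbers in the labels ran from 18 to 21 for comparison dogs 1 to 4 and from 1 to 3 for comparison dogs 5 to 7. Against the first series the count was 20 of 42 (4.12% of all genes) and the median 1.11, and against the second 2 of 45 (3.84%) and 0.69. French bulldog libraries were numbered 1 to 12, and which series they belong to is not given, so breed and library series cannot be told apart. Most boxers were in the first series and most Boston terriers in the second. The splits of the comparison group by breed and by series therefore largely overlap.

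H/ACA box snoRNAs, which guide pseudouridylation and share the intronic way of being made, were set beside them. Of 21 tested SNORA genes, 16 were higher in French bulldogs, 6 had an unadjusted p under 0.05, all 6 of them higher (9.56% of all genes called and 53.6% higher), and the median log2 fold change was 0.57. They took 0.137% ± 0.0446 of a French bulldog's counts (SD, n = 10) and 0.125% ± 0.0309 of a comparison dog's (SD, n = 7). The difference between the classes was not tested. U3, a C/D RNA listed under its own symbol and therefore not a member, had 5 tested genes of 41 listed, of which 3 were higher and 1 had an unadjusted p under 0.05, also higher, with a median log2 fold change of 0.76.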

How the data were processed

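RNASeq libraries of 18 HGO samples were used. According to the labels and methods, the authors trimmed the reads with Trimmomatic 0.33, mapped them to canFam6 with HISAT2 2.1.0 and counted them per gene with featureCounts, and they deposited raw counts without normalization. How strand and multi-mapped reads were handled is not given in the sources used here, so counts of near-identical copies, overlapping genes and host introns are uncertain.

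Counts of French bulldogs 2 and 8 were summed. Counts were normalized by TMM, filtered by filterByExpr and tested by edgeR's quasi-likelihood test (edgeR 4.0.16, R 4.3.3, robust, two-sided) with Benjamini-Hochberg adjustment over all genes tested, at a threshold of 0.05. Each standard error is the size of the fitted log2 change over the root of its F statistic. Deviations used log2(normalized CPM + 0.05). Alternatives were DESeq2 1.42.0, limma-voom (limma 3.58.1), other normalizations, no filter, 18 libraries, single breeds or library series, each dog left out, and a replicate block. The code was tested on simulated data.

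Members, hosts and gene lists were chosen with earlier results of these data known. Genes named were the 10 members with the smallest p, the 10 with the most counts, the highest gene of SNHG1, SNORD115 and SNORD116, SNORD34 and the core proteins. Others, among them SNORD14, SNORD16, SNORD18, SNORD24, SNORD27, SNORD81 and SNORD82, were named after their values were seen. Dogs are taken as replicates as labelled. Plots were drawn with matplotlib 3.10.9 in Python 3.11.15.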

Additional observations from a re-analysis of the deposited data

Results flagged for a closer look

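Of 42 sets of values tested for a dog far from the rest of its group, 6 had one. The sets are not independent, since members move together within a dog, so no chance rate is set against this count. French bulldog 11 had 1409 normalized CPM of SNORD22 ENSCAFG00000026245, where the other French bulldogs had 258.3 to 653.0, and 431.7 of SNORD26 ENSCAFG00000026225, where they had 18.2 to 237.4. French bulldog 6 had 172.3 of SNORD15 ENSCAFG00000022076, where the others had 48.5 to 113.7. The Boston terrier control 7 had 22.9 of SNORD36 ENSCAFG00000025846, where the lowest comparison dog had 6.01, and 19.1 of SNORD42 ENSCAFG00000021692, where they had 5.92 to 10.98. The median log2 deviation over tested members was -2.19 for French bulldog 9, while the rest of its breed spanned -0.15 to 1.37.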

How the results depend on the processing

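The median log2 fold change of members stayed positive in all 30 alternatives, between 0.84 and 1.15 with a dog left out and between 0.69 and 1.11 otherwise. Members with an unadjusted p under 0.05 numbered 21 (9.56% of all genes), and 17 to 26 with a dog left out. The share of all genes was 8.51% without French bulldog 6 and 11.3% without French bulldog 9, and is not given for the other dogs. The members numbered only 5 with limma-voom (7.89%), 3 against Boston terriers alone (2.76%) and 2 against comparison dogs 5 to 7 alone (3.84%). The cause of these lower counts was not tested. DESeq2 called 1 member after adjustment, and edgeR and limma-voom called 0. Dogs that share a number are different animals of different breeds, and nothing in the labels pairs them. The correlation of their deviations ran from -0.501 to 0.214. Pairs with unlike numbers were not set beside them, so these values decide nothing about pairing. The replicate block over the 7 numbers gave 24 members at an unadjusted p under 0.05 and 0 adjusted calls, and the same 14 dogs without the block, an alternative chosen after seeing the data, gave 25 and 0. Outside the gene with the most counts, the comparison share was 0.205% and the French bulldog share 0.284%. Of 540 alternative values for 18 named members, 520 kept direction and side of the threshold, 1 (SNORD39 with DESeq2) passed it and 19, in 4 members, changed sign. SNORD22 ENSCAFG00000026245 gave -0.027 against Boston terriers, -0.16 against dogs 5 to 7, -0.052 with the block, -0.093 without it and -0.14 to 0.24 with a dog left out (lowest without French bulldog 11). SNORD22 ENSCAFG00000026010 gave 0.042 against boxers, 0.14 against dogs 1 to 4 and -0.36 to 0.045 with a dog left out. SNORD15 ENSCAFG00000021647 gave -0.19 and -0.17 against Boston terriers and dogs 5 to 7, and -0.059 to 0.13 with a dog left out. SNORD116 ENSCAFG00000059070 gave -0.13 with limma-voom, -0.12 and -0.18 against those groups, and -0.026 to 0.23 with a dog left out. The 1 member called between boxers and Boston terriers at an unadjusted p (6.23% of all genes) became 0 to 4 in the alternatives. The share of all genes in those alternatives is not given. Members with under 190 counts did not pass the filter on low counts over the 17 dogs, and all 62 members were tested only in DESeq2 and in edgeR without the filter.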

Other observations

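Other small RNAs were counted by symbol after the values of the snoRNAs were seen. Of 9 tested 5S ribosomal RNA genes, 9 were higher in French bulldogs and 8 had an unadjusted p under 0.05 in the edgeR test, with a median log2 fold change of 1.13, where 9.56% of all genes were called and 53.6% were higher. Of 10 tested Y RNA genes, 9 were higher and 8 had an unadjusted p under 0.05, 7 of them higher, with a median of 1.17. Of 141 tested U6 genes, 101 were higher and 52 had an unadjusted p under 0.05, 51 of them higher, with a median of 0.49. Signal recognition particle RNA genes had a median of 0.47, and 3 of 13 had an unadjusted p under 0.05. U4 genes were nearer all genes in their median, 0.10, and in direction, with 17 of 29 higher. However, 7 of the 29 had an unadjusted p under 0.05, 6 of them higher, which is above the share of all genes. Of 21 tested U1 genes, 14 were higher and 9 had an unadjusted p under 0.05, 6 of them higher, with a median of 0.35. U2 had 22 of 26 higher and 9 at an unadjusted p under 0.05, 8 of them higher (median 0.39), and U5 had 8 of 8 higher and 6 at that limit (median 0.79). These genes are multi-copy, and their counts may be shared between copies.

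French bulldog 9 was also low in other small RNA classes. Its median log2 deviation was -1.35 over 5S ribosomal RNA genes, -1.96 over U2 genes, -1.66 over U5 genes and -1.40 over H/ACA snoRNA genes, but 0.34 over signal recognition particle RNA genes. In French bulldog 11 the same medians were 1.32, 0.81, 1.08, 0.64 and -0.15.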
